A study of Rattus norvegicus with 43 samples.

Results

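Aldosterone-responsive sodium and potassium transport was followed in Sprague Dawley rats, in pieces of distal colon, through 9 genes: Nr3c2, Hsd11b2, Sgk1, Scnn1a, Scnn1b, Scnn1g, Kcnq1, Atp1b1 and Atp12a. The genes were taken by symbol, each was read from 1 probe set of an Affymetrix array, and all 9 were among the 10934 genes tested. Colon was sampled at 11 weeks of age, with 1 rat per array and 43 arrays. There were 9 rats on the HAMSB diet, 8 on HAW, 8 on HAMS, 6 on LAW, 7 on LAMS and 5 on the control diet, CON. From what is known of the study, the 5 diets other than CON were Western diets that differed in their starch. HAMSB held butyrylated high-amylose maize starch, HAW high-amylose wheat, HAMS high-amylose maize starch, LAW low-amylose wheat and LAMS low-amylose maize starch. The labels record no genotype or drug treatment in any group. Arrays labelled HAM were taken as HAMS, the spelling used in the series description. Values are log2 levels, so a difference of 1 is a doubling, and levels of different genes are not compared because each probe set has its own brightness.

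Aldosterone acts on the colon as it does on the collecting duct of the kidney. It binds the mineralocorticoid receptor, encoded by Nr3c2, and the enzyme encoded by Hsd11b2 keeps that receptor free for aldosterone by inactivating glucocorticoids, which bind it as well. The receptor induces the kinase Sgk1, which restrains the removal of the epithelial sodium channel ENaC from the cell surface. ENaC is built from the subunits encoded by Scnn1a, Scnn1b and Scnn1g, and it lets luminal sodium into surface colonocytes of the distal colon. The sodium-potassium pump, with the beta subunit Atp1b1, exports that sodium across the basolateral membrane. Kcnq1 forms a basolateral potassium channel that sustains the electrical driving force for secretion and absorption, and Atp12a is the apical potassium-absorbing H+/K+-ATPase of the colon.

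The tissue labels were checked against markers before the results. Of the genes of hindgut position, Hoxb13 lay at 8.91 to 10.80 and Hoxd13 at 8.20 to 10.40 on the 43 arrays. These 2 genes did not stay level across diets: both fell on HAMS against LAMS (Hoxb13 -0.47 ± 0.17, Hoxd13 -0.74 ± 0.15), both rose on HAMSB against HAMS, by 0.49 and 0.59, and Hoxd13 rose on HAW against HAMS, by 0.76. Markers of small-intestine enterocytes were not all absent. Fabp6 lay at 3.87 to 4.98, around the level of 4.75 below which genes were not tested, while Apoa4 lay at 5.55 to 6.49, Alpi at 4.69 to 6.48 and Fabp2 at 3.98 to 7.67, and Fabp2 rose on HAMSB against HAMS, by 1.18 ± 0.30, and on HAW against HAMS, by 1.20 ± 0.31. The arrays differed in lymphoid content. The lymphoid level, the mean log2 level of the 11 tested genes of 16 listed B-cell and germinal-centre markers, was 5.42 to 6.77 on 27 arrays and 7.09 to 9.13 on the other 16. The arrays over 7 were 2 of 9 on HAMSB, 2 of 8 on HAW, 6 of 8 on HAMS, 2 of 6 on LAW, 3 of 7 on LAMS and 1 of 5 on CON. By diet the lymphoid level ran from 5.43 to 8.23 on HAMSB, 5.50 to 8.81 on HAW, 5.49 to 9.13 on HAMS, 5.45 to 8.60 on LAW, 5.42 to 8.58 on LAMS and 5.56 to 8.20 on CON. The epithelial level, the mean of 11 epithelial markers such as Epcam and Krt8, averaged 10.51 ± 0.34 on HAMS (SD, n = 8) and 10.81 to 10.86 on the other diets. HAMS replicate 2 had both the highest lymphoid level, 9.13, and the lowest epithelial level, 9.89, of the 43 arrays. The tissue was a whole piece of colon, so fewer cells of a type and less RNA per cell cannot be told apart.

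The receptor, its guarding enzyme, the kinase and the potassium channel were all lower on HAMS than on LAMS, while the genes for the ENaC beta and gamma subunits showed no detectable difference between diets. In the F test over the 6 diets, 5 of the 9 genes passed the threshold of an adjusted p of 0.05 (Hsd11b2, Nr3c2, Sgk1, Scnn1a and Kcnq1), where 30.7% of all genes tested did. On HAMS against LAMS, 4 of 9 fell (Hsd11b2, Nr3c2, Sgk1 and Kcnq1) and 0 rose, while of all genes 14.1% passed, 12% lower and 2.17% higher. HAMSB against HAMS had 4 of 9 that rose (Hsd11b2, Nr3c2, Scnn1a and Kcnq1), while of all genes 16.7% passed, 14.2% higher and 2.48% lower. HAW against HAMS also had 4 of 9 that rose (Nr3c2, Sgk1, Scnn1a and Kcnq1), while of all genes 13.3% passed, 10.9% higher and 2.4% lower. The median difference of the 9 genes was -0.46 on HAMS against LAMS, where that of all genes was -0.084. For HAMSB against HAMS the medians were 0.32 for the 9 genes and 0.066 for all genes, and for HAW against HAMS 0.48 for the 9 genes and 0.066 for all genes. These comparisons share the HAMS arrays.

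**Figure D1:**
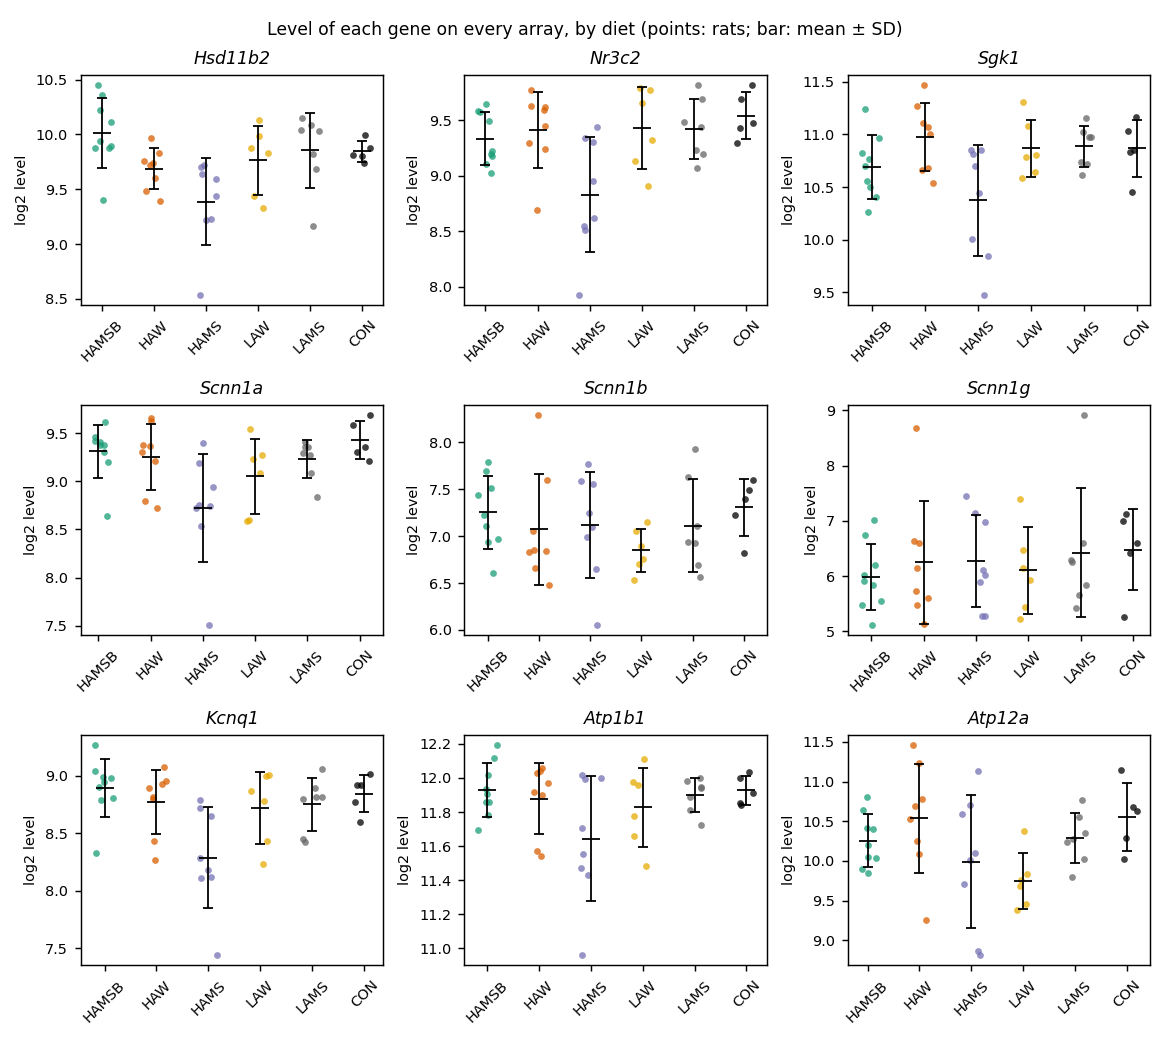
Level of each of the 9 genes on every array, on the log2 scale, by diet (points are rats, bars the mean ± SD; 9 rats on HAMSB, 8 on HAW, 8 on HAMS, 6 on LAW, 7 on LAMS and 5 on CON). HAMS has the lowest mean for 6 of the 9 genes, and on HAMS the points spread widely, down to 7.93 for Nr3c2 and 7.51 for Scnn1a.

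Nr3c2, the mineralocorticoid receptor, carried the largest drop on HAMS against LAMS among the 9 genes. Its level on HAMSB was 9.03 at the lowest, 9.23 at the median and 9.65 at the highest. On HAW these 3 values were 8.69, 9.52 and 9.77, on HAMS 7.93, 8.79 and 9.44, on LAW 8.91, 9.49 and 9.80, and on LAMS 9.07, 9.44 and 9.82. The 5 CON rats had 9.69, 9.82, 9.43, 9.48 and 9.29. On HAMS, 5 of 8 rats lay below the lowest LAMS rat, while the other 3 lay within the LAMS range, so the groups overlapped. Nr3c2 was lower by -0.59 ± 0.17 (log2 difference ± SE) on HAMS than on LAMS, 0.67 times the LAMS level, with an adjusted p of 0.025 by limma. It was higher on HAMSB than on HAMS by 0.50 ± 0.16 (adjusted p = 0.030) and higher on HAW than on HAMS by 0.58 ± 0.17 (adjusted p = 0.022). In the order of the 6 diet means, from CON at the top to HAMS at the bottom, HAMSB above HAMS was the 1 neighbouring pair that differed, and it was also the 1 such pair among the 45 of the 9 genes.

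Hsd11b2, whose product spares the receptor from glucocorticoids, was the gene with the largest rise on HAMSB against HAMS. It measured 9.40 at the lowest, 9.94 at the median and 10.45 at the highest on HAMSB, and 9.39, 9.73 and 9.97 on HAW. HAMS rats had 8.54, 9.52 and 9.72, LAW rats 9.32, 9.85 and 10.13 and LAMS rats 9.17, 10.03 and 10.15, while the CON rats had 9.81, 9.81, 9.998, 9.87 and 9.74. Of the 9 HAMSB rats, 8 lay above the highest HAMS rat, and the difference was 0.63 ± 0.14, or 1.55 times, with an adjusted p of 0.0041. The LAMS range covered 7 of the 8 HAMS rats, with HAMS replicate 2 alone below it, and the drop on HAMS against LAMS was -0.47 ± 0.15 (adjusted p = 0.036). HAW against HAMS gave 0.30 ± 0.15 with an adjusted p of 0.15, which missed the threshold.

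Sgk1, the kinase downstream of the receptor, had 10.26 at the lowest, 10.70 at the median and 11.24 at the highest on HAMSB. These values were 10.53, 11.04 and 11.47 on HAW, 9.48, 10.57 and 10.85 on HAMS, 10.58, 10.79 and 11.31 on LAW and 10.62, 10.97 and 11.15 on LAMS, and CON rats had 11.17, 10.85, 11.03, 10.84 and 10.45. On HAMS, 4 of the 8 rats lay below the lowest LAMS rat, and the difference was -0.51 ± 0.17, or 0.70 times (adjusted p = 0.041). HAW rats were 0.60 ± 0.17 above HAMS rats (adjusted p = 0.018). HAMSB rats were 0.32 ± 0.16 above HAMS rats, which missed the threshold at an adjusted p of 0.15.

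Of the 3 ENaC genes Scnn1a alone passed in any comparison, and differences between the 3 genes were not tested. Scnn1a, the alpha subunit that the channel needs to conduct, measured 8.64, 9.38 and 9.61 on HAMSB as the lowest, median and highest values. It measured 8.72, 9.33 and 9.66 on HAW, 7.51, 8.75 and 9.39 on HAMS, 8.59, 9.16 and 9.54 on LAW and 8.84, 9.30 and 9.41 on LAMS. CON rats had 9.22, 9.59, 9.69, 9.36 and 9.31. HAMS was the lowest diet, with 5 of its 8 rats below the lowest LAMS rat. Scnn1a rose on HAMSB against HAMS by 0.59 ± 0.17 (1.5 times, adjusted p = 0.016) and on HAW against HAMS by 0.53 ± 0.17 (1.45 times, adjusted p = 0.038). On HAMS against LAMS the difference was -0.51 ± 0.18 with an adjusted p of 0.051, just outside the threshold.

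Scnn1b, the beta subunit, did not pass in any comparison. Its mean was 7.25 ± 0.39 on HAMSB, 7.07 ± 0.59 on HAW, 7.12 ± 0.56 on HAMS, 6.85 ± 0.23 on LAW, 7.11 ± 0.50 on LAMS and 7.31 ± 0.30 on CON (SD). HAMS against LAMS gave 0.0082 with a 95% interval from -0.45 to 0.47, so differences of either sign within that interval remain possible. Scnn1g, the gamma subunit, had the widest spread of the 9 genes, from 5.12 to 8.91 over the 43 arrays. Its differences were -0.16 on HAMS against LAMS (95% interval from -1.05 to 0.73) and -0.28 on HAMSB against HAMS (-1.12 to 0.55). Just 2 arrays reached over 8, LAMS replicate 4 at 8.91 and HAW replicate 1 at 8.68, and the next highest array stood at 7.45. On the same 2 arrays Scnn1b was 7.93 and 8.29, the highest values of their diets.

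The promoters of the beta and gamma subunit genes are shown because these genes lie side by side on rat chromosome 1, with 0 listed genes between them, and because their levels followed each other from array to array. Atp12a is shown beside them because 1 of its windows held a half-element of corticosteroid receptors, though not the full element. It was the 1 window with a half-element among the 7 that were matched, which covered 4 of the 9 genes. The sequences are RefSeq's for GRCr8, 250 bases before and 50 bases after each start, all on the plus strand, and RefSeq windows were matched for 4 of the 9 genes. Scnn1g lies at chr1:185735975-185736274, Scnn1b at chr1:185861126-185861425 and the second Atp12a start at chr15:34559495-34559794. Capitals mark the 50 bases after the start in Scnn1g and Scnn1b, and the half-element TGTTCT in Atp12a.
Scnn1g: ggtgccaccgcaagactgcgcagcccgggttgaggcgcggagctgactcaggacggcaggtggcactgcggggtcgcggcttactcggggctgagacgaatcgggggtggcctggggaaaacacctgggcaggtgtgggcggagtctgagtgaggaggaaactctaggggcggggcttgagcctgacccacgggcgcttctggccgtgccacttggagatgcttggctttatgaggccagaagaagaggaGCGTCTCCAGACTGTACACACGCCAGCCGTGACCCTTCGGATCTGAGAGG
Scnn1b: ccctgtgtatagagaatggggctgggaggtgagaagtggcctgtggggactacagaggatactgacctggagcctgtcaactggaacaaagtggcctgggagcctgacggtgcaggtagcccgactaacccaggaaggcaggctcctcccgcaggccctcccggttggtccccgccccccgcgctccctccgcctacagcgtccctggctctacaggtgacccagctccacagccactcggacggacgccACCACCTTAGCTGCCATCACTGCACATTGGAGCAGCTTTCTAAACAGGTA
Atp12a: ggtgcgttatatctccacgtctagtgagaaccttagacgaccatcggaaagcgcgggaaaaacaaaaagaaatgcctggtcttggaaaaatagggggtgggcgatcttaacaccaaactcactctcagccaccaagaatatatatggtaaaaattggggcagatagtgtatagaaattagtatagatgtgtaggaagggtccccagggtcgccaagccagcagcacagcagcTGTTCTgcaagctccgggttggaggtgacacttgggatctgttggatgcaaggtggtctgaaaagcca
The half-element searched was AGAACA on either strand, which reads TGTTCT on the other. It was found in 1 of the 7 windows of the 4 genes and in 20.7% of 33469 rat windows. AGAACA and TGTTCT separated by 3 bases, the full receptor element, stood in 0 of the 7 windows and in 0.0149% of all windows. G and C made up 65.0% of the Scnn1g window and 62.7% of the Scnn1b window, where the median of all windows was 51.7%.

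Kcnq1, the basolateral potassium channel, was lower on HAMS than on LAMS and higher on HAMSB and on HAW than on HAMS. It measured 8.33 at the lowest, 8.95 at the median and 9.27 at the highest on HAMSB, 8.27, 8.86 and 9.08 on HAW and 7.44, 8.23 and 8.79 on HAMS. LAW rats had 8.23, 8.83 and 9.00, LAMS rats 8.43, 8.82 and 9.06, and CON rats 8.92, 9.02, 8.77, 8.92 and 8.60. On HAMS, 5 of 8 rats lay below the lowest LAMS rat, and 7 of the 9 HAMSB rats lay above the highest HAMS rat. The differences were -0.46 ± 0.15 on HAMS against LAMS (0.72 times, adjusted p = 0.037), 0.61 ± 0.14 on HAMSB against HAMS (1.52 times, adjusted p = 0.0048) and 0.48 ± 0.15 on HAW against HAMS (1.40 times, adjusted p = 0.028).

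In the fit used throughout, the pump genes did not pass the threshold in any comparison. With array weights Atp1b1 passed by limma on HAMS against LAMS (adjusted p = 0.044), HAMSB against HAMS (0.011) and HAW against HAMS (0.0089). Of all genes 4059, 3791 and 4742 passed with those weights, in that order. Atp1b1 averaged 11.93 ± 0.16 on HAMSB, 11.88 ± 0.21 on HAW, 11.64 ± 0.37 on HAMS, 11.83 ± 0.23 on LAW, 11.90 ± 0.10 on LAMS and 11.93 ± 0.09 on CON. HAMS was again the lowest, with -0.26 ± 0.11 against LAMS (adjusted p = 0.11) and 0.29 ± 0.11 for HAMSB against HAMS (adjusted p = 0.057). Atp12a, the apical potassium pump, varied widely within diets. It spanned 9.26 to 11.45 among the 8 HAW rats and 8.82 to 11.14 among the 8 HAMS rats. Its means were 10.26 ± 0.33 on HAMSB, 10.54 ± 0.69 on HAW, 9.99 ± 0.84 on HAMS, 9.75 ± 0.35 on LAW, 10.29 ± 0.32 on LAMS and 10.55 ± 0.42 on CON, and 5 of the 8 HAW rats lay above the highest LAW rat. HAW against LAW gave 0.79 (95% interval from 0.22 to 1.35), with an unadjusted p of 0.0078 and an adjusted p of 1.00 by limma.

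**Figure D2:**
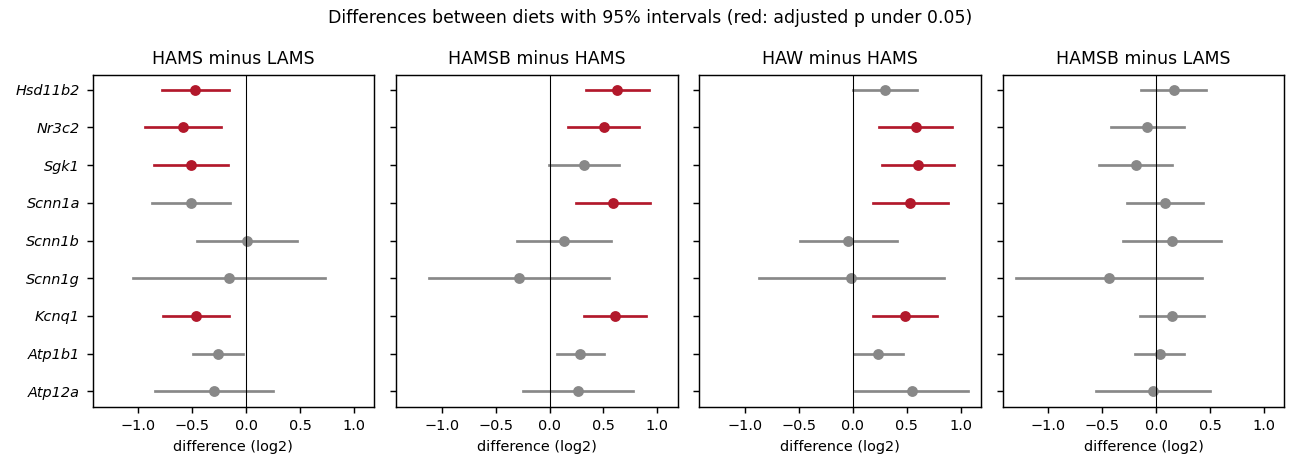
Log2 differences between diets for each gene (points) with 95% intervals (lines), red where the adjusted p is under 0.05. The differences of Nr3c2, Hsd11b2, Sgk1, Scnn1a and Kcnq1 lie to the left of 0 on HAMS against LAMS and to the right of 0 on HAMSB and HAW against HAMS, and all 9 intervals cross 0 on HAMSB against LAMS.

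Butyrylated starch against low-amylose starch, both in the Western diet, left the 9 genes without a detectable difference. On HAMSB against LAMS 0 of 9 passed by limma and 0 had an unadjusted p under 0.05, while 6.78% of all genes passed, 4.59% lower and 2.19% higher. An unadjusted p under 0.05 was found there for 2856 of all 10934 genes. The 95% interval was -0.14 to 0.46 for Hsd11b2, -0.42 to 0.26 for Nr3c2, -0.53 to 0.14 for Sgk1, -0.27 to 0.43 for Scnn1a and -0.15 to 0.44 for Kcnq1. The Western diets against the control diet gave 0 of 9 as well, both for LAMS against CON (0 genes of 9 at an unadjusted p under 0.05) and for the mean of the 5 Western diets against CON (also 0). For the mean of the 5 diets all 9 differences were negative, from -0.39 for Atp12a to -0.092 for Atp1b1, in a comparison where 1.44% of all genes passed and the median of all genes was -0.066. Of all 10934 genes 7337 were negative in that comparison and 1834 had an unadjusted p under 0.05. High-amylose against low-amylose wheat, HAW against LAW, gave 0 of 9 by limma with 1 gene, Atp12a, at an unadjusted p under 0.05, and LAW against LAMS gave 0 and 0. By limma 0 of the 10934 genes passed in LAMS against CON, HAW against LAW or LAW against LAMS, while 938, 212 and 192 had an unadjusted p under 0.05 in these 3 comparisons. Whether high amylose acted differently in wheat and in maize starch was tested by setting HAW minus LAW against HAMS minus LAMS. For this 0 of 9 genes passed by limma, where 0.0274% of all genes passed. An unadjusted p under 0.05 was found for 5 of 9 and for 1674 of all 10934 genes. The 9 differences between the amylose effects were all positive, from 0.22 for Scnn1b to 1.08 for Atp12a (adjusted p = 0.20). Of all 10934 genes 6420 were positive, and the median of all genes was 0.058.

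The calls on HAMS moved with the epithelial and lymphoid levels of the tissue pieces. On HAMS against LAMS all 11 B-cell and germinal-centre markers were higher, with a median of 1.31, and all 8 T-cell markers as well, with a median of 1.17, although 0 of either list passed. Of 11 epithelial markers 2 fell, of 6 fibroblast markers 5 fell, with a median of -0.61, and of 7 surface colonocyte markers 0 passed. On HAMSB against HAMS 4 of 7 surface colonocyte markers rose, with a median of 0.64, as did 3 of 11 epithelial and 2 of 6 fibroblast markers, while 2 of 8 T-cell and 1 of 11 B-cell markers fell. For HAW against HAMS 4 of 11 epithelial, 1 of 7 surface colonocyte, 5 of 6 fibroblast and 4 of 5 adipocyte markers rose, and 0 of the B-cell or T-cell markers passed. Among the 8 HAMS rats, the 2 with a lymphoid level under 7 had Nr3c2 at 9.34 and 9.44, and the 6 over 7 had it between 7.93 and 9.30. Kcnq1 was 8.79 and 8.72 in the first 2 and between 7.44 and 8.65 in the other 6. With the lymphoid level as a covariate, added to the same model over all genes, 0 of 9 passed on HAMS against LAMS, 2 on HAMSB against HAMS (Hsd11b2 at 0.39, adjusted p = 0.031, and Kcnq1 at 0.35, adjusted p = 0.028) and 0 on HAW against HAMS. Of all genes 673, 375 and 394 passed in these comparisons with that covariate, in the same order. With the epithelial level as a covariate the counts were 0, 0 and 0, and of all genes 88, 9 and 80 passed. In that fit Nr3c2 on HAMS against LAMS was -0.26 with an adjusted p of 0.22, and Kcnq1 -0.13 with 0.35. Among the 27 arrays under 7, of which 2 were HAMS and 4 LAMS, Nr3c2 differed by 0.031 and Kcnq1 by -0.14 on HAMS against LAMS. Among the arrays over 7, 6 HAMS and 3 LAMS, Nr3c2 fell by 0.85 (adjusted p = 0.041) and the other 8 genes missed the threshold. Of all genes 0 passed on HAMS against LAMS under 7 and 785 over 7. The comparisons within each set of arrays were chosen after seeing the data and rest on few rats.

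Other properties of the arrays moved with the HAMS diet too. Without HAMS replicate 2, 0 of 9 genes passed on HAMS against LAMS, 2 on HAMSB against HAMS, 0 on HAW against HAMS and 0 in the F test. The count on HAMS against LAMS was also 0 without HAMS replicate 6, LAMS replicate 3 or LAMS replicate 6, 1 without HAMS replicate 4 or LAMS replicate 5, and 2 without HAMS replicate 7, LAMS replicate 1 or LAMS replicate 7. The count on HAW against HAMS was 0 without HAMS replicate 6, 1 without HAW replicate 1, 2 or 3, and 2 without HAMS replicate 4, HAMS replicate 8 or HAW replicate 7. The F test count was 2 without HAMS replicate 4 or 6. With 1 array left out at a time, 614 to 2425 of all genes passed on HAMS against LAMS and 923 to 2868 on HAMSB against HAMS. The ranges were 539 to 3141 on HAW against HAMS and 2513 to 4334 in the F test. The array files carried names of several styles, and all 8 HAMS arrays shared a style with 5 HAMSB, 3 HAW, 1 LAW, 3 LAMS and 0 CON arrays. What the style stands for is not given in the sources used here. With the style as a block, 1 gene passed on HAMS against LAMS (Hsd11b2, -0.61, adjusted p = 0.019), 4 on HAMSB against HAMS and 0 on HAW against HAMS. Within that style alone, the counts were 1 on HAMS against LAMS, 3 on HAMSB against HAMS and 0 on HAW against HAMS. Of all genes 945 passed on HAMS against LAMS and 808 on HAW against HAMS with the block. Within the style 1199 and 7 passed. The interquartile range of all values on an array averaged 3.01 ± 0.14 on HAMS (SD, n = 8), 3.21 ± 0.09 on LAMS (n = 7) and 3.30 ± 0.05 on CON (n = 5). Centring each array on its own median moved the median difference of all genes on HAMS against LAMS to 0.025, by over 0.1, and the share of calls that were lower to 49.1%, against 84.7% without centring. With centring the share was 44.3%, against 14.9%, on HAMSB against HAMS and 46.3%, against 17.97%, on HAW against HAMS. Relative to the array median Nr3c2 was -0.48 (adjusted p = 0.052) and Kcnq1 -0.36 (adjusted p = 0.10) on HAMS against LAMS, and 4 genes still passed on HAMSB against HAMS.

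**Figure D3:**
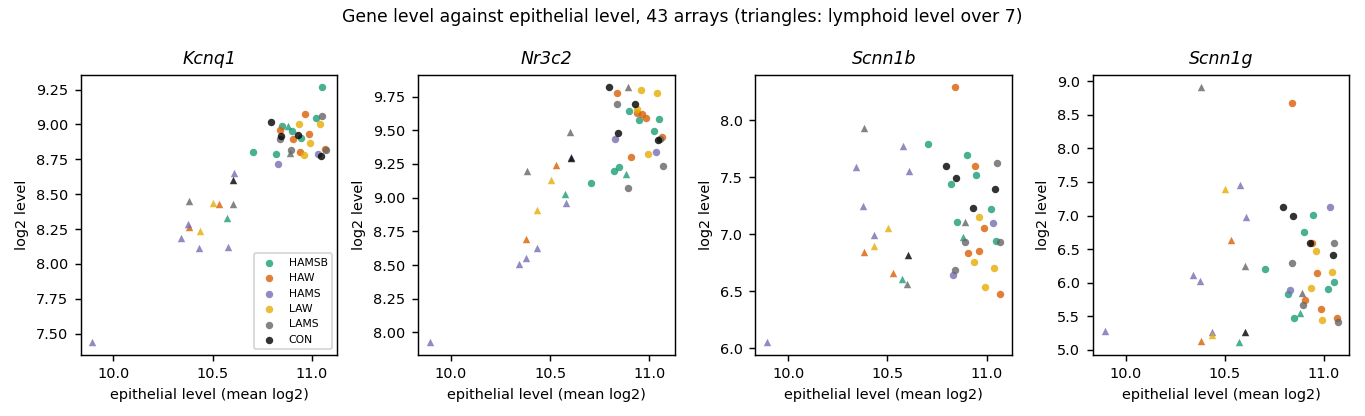
Log2 level of 4 genes against the epithelial level (mean log2 of 11 markers) on the 43 arrays, coloured by diet, with triangles for the 16 arrays whose lymphoid level is over 7. Kcnq1 and Nr3c2 are lowest on HAMS replicate 2, whose epithelial level is 9.89, while Scnn1g is high on 2 arrays at epithelial levels of 10.38 and 10.84.

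Among the arrays rich in lymphoid markers 6 of the 9 genes had r of 0.68 or more with the epithelial level. In 15 such arrays, with diet means subtracted and CON left out because it had 1 such array, r with the epithelial level was 0.91 for Nr3c2 (rho 0.92, and 0.85 without the 2 arrays farthest from the median). It was 0.89 for Hsd11b2 (rho 0.78, 0.84 without those 2), 0.87 for Kcnq1 (rho 0.83, 0.74), 0.87 for Atp1b1 (rho 0.86, 0.81), 0.85 for Scnn1a (rho 0.83, 0.72) and 0.68 for Sgk1 (rho 0.60, 0.52). Scnn1g, at 0.13 (rho 0.14, 0.11), and Scnn1b, at 0.47 (rho 0.17, 0.075), lay lower, and Atp12a was at 0.61 (rho 0.63, 0.56). Among the 27 arrays poor in lymphoid markers r was 0.52 for Atp1b1, 0.50 for Scnn1a and 0.41 for Sgk1, and without the 2 farthest arrays 0.39, 0.38 and 0.18 for these genes. It was 0.29 for Kcnq1 (0.0083 without those 2), 0.14 for Hsd11b2 (-0.059) and 0.069 for Nr3c2 (-0.16), while Atp12a was at 0.33 (0.35), Scnn1g at -0.21 (-0.22) and Scnn1b at -0.30 (-0.16). All points share the array, its scaling and its tissue piece, and no p-values are attached to these correlations. In a separate count over all 10934 genes tested, 5611 followed the epithelial level, among them 7 of the 9 genes. For the lymphoid level the counts were 5805 and 6. Following these levels was thus common among all genes and not particular to the 9.

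The genes also followed each other. Over the 15 pairs among Hsd11b2, Nr3c2, Sgk1, Scnn1a, Kcnq1 and Atp1b1, r was between 0.55 and 0.95, with a median of 0.82, in the 15 arrays over 7. In the 27 arrays under 7 it was between -0.23 and 0.65, with a median of 0.32. Pairs of other genes were not set beside these values. Whether the genes kept together more closely than other genes of the epithelium was therefore not tested. Nr3c2 and its kinase Sgk1 had r of 0.80 over 7, just under the median of that set, and 0.65 under 7, the highest of that set. Nr3c2, which encodes the receptor, and Hsd11b2, whose product keeps glucocorticoids from it, had r of 0.81 over 7 and -0.23 under 7. Pairs of these 6 genes with Scnn1b or Scnn1g had a median r of 0.44 over 7 and -0.036 under 7. Scnn1b and Scnn1g, the neighbours on chromosome 1, kept together in both sets, with r of 0.69 over 7 (rho 0.72, and 0.61 without the 2 farthest arrays) and 0.83 under 7 (rho 0.71, 0.68).

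**Figure D4:**
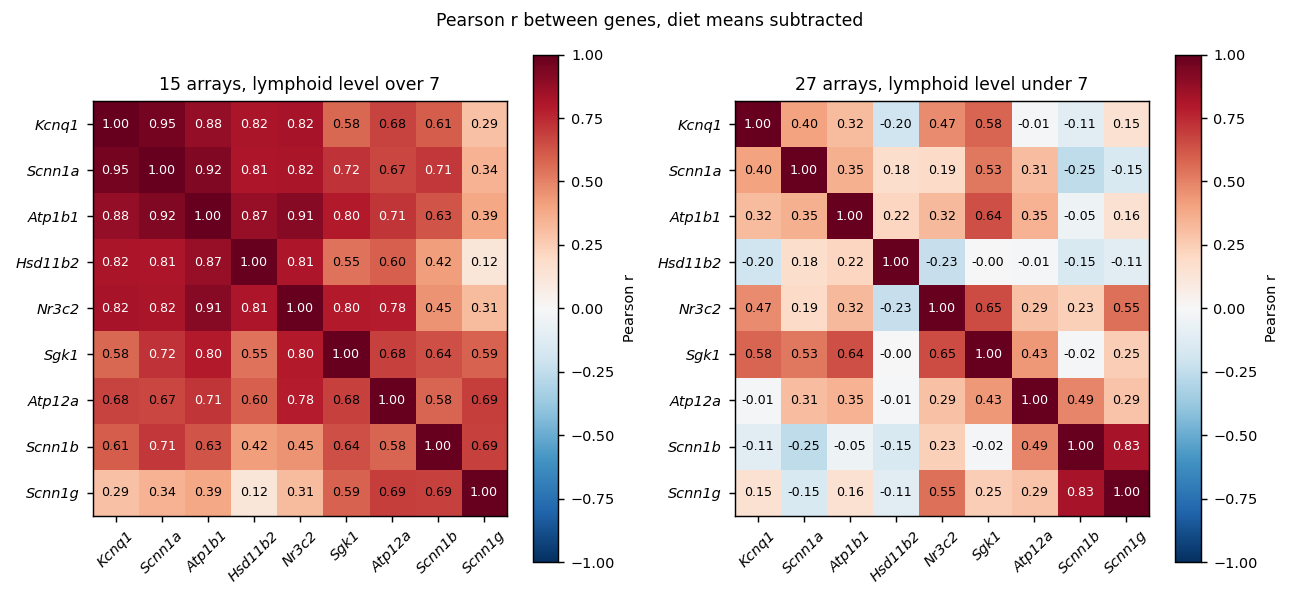
Pearson r between the 9 genes with diet means subtracted, in the 15 arrays with a lymphoid level over 7 (left) and the 27 arrays under 7 (right). The block of Kcnq1, Scnn1a, Atp1b1, Hsd11b2 and Nr3c2 is at 0.81 or more on the left and between -0.23 and 0.47 on the right, while Scnn1b with Scnn1g is at 0.69 and 0.83.

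Over all 43 arrays, with diet means subtracted, the genes most like the ENaC alpha subunit were Cdh1, which encodes E-cadherin (r = 0.93, rho 0.87), and Ptprf (r = 0.90, rho 0.78). For Atp1b1 they were Epcam, the epithelial adhesion molecule (r = 0.91, rho 0.89), and Slc44a4 (r = 0.90, rho 0.86). Cdh1 and Epcam both belong to the epithelial marker list. For Nr3c2 they were Epb41l3 (r = 0.94) and Plce1 (r = 0.94), for Hsd11b2 Hgfac (r = 0.86) and Pgap6 (r = 0.85), and for Sgk1 Eno1 and Rbm47 (r = 0.83 each). Kcnq1 was most like Prkcz (r = 0.91) and Abcc3 (r = 0.91). Atp12a was most like Osbpl6 (r = 0.75) and Cpeb4 (r = 0.73). Scnn1b was most like the folate transporter gene Slc46a1 (r = 0.77, rho 0.80), followed by Scnn1g (r = 0.75, rho 0.68), and Scnn1g was most like Scnn1b, followed by Igf1r (r = 0.66, rho 0.67).

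Other genes of corticosteroid action and ion transport were followed in 7 lists of 85 genes, of which 69 were tested. On HAMS against LAMS 14 of the 69 fell, or 20.3%, and 0 rose, against 4 of the 9 genes above and 12% of all genes. The median of the 69 was -0.27. On HAMSB against HAMS 15 rose and 2 fell, with a median of 0.26, and on HAW against HAMS 13 rose and 1 fell, with a median of 0.29. With the epithelial level as a covariate the counts on HAMS against LAMS were 0 and 0, on HAMSB against HAMS 0 and 0, and on HAW against HAMS 0 and 0. Of all genes 88, 9 and 80 passed in these comparisons with that covariate.

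The kinases and ubiquitin ligases that act on ENaC included 3 genes of 11 that fell on HAMS against LAMS. These were Stk39, a kinase of the WNK cascade (-0.47 ± 0.13, adjusted p = 0.018), Nedd4l, the ligase that Sgk1 phosphorylates to keep ENaC at the surface (-0.51 ± 0.15, adjusted p = 0.025), and its relative Nedd4 (-0.38 ± 0.12, adjusted p = 0.029). A ligase that removes the channel and the kinase that restrains it were both lower on HAMS. On HAW against HAMS, Nedd4 (0.45 ± 0.11), Nedd4l (0.49 ± 0.15) and Oxsr1, another kinase of the WNK cascade (0.47 ± 0.16), rose, and HAMSB against HAMS had 1 of 11 that rose, Stk39 (0.36 ± 0.12). Of 8 ENaC-cleaving proteases and their inhibitors, 2 fell on HAMS against LAMS, the protease Tmprss2 (-0.51 ± 0.17) and the inhibitor Spint1 (-0.44 ± 0.15). HAMSB against HAMS had 3 of 8 that rose, namely Spint1 (0.50 ± 0.14), St14, which encodes matriptase (0.46 ± 0.14), and Tmprss4 (0.57 ± 0.17), and on HAW against HAMS 1 rose, Spint1 (0.42 ± 0.15).

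Of 10 corticosteroid-induced genes 9 had negative differences on HAMS against LAMS, with a median of -0.35 where that of all genes was -0.084, and 4 had an unadjusted p under 0.05. Of all 10934 genes 6809 were negative in this comparison and 3686 had an unadjusted p under 0.05. After adjustment 1 of 10 fell, Fxyd4, which encodes a corticosteroid-induced regulator of the sodium pump in distal colon and kidney, with 9.37 ± 0.67 on HAMS and 10.05 ± 0.53 on LAMS (SD, n = 8 and 7; difference -0.67 ± 0.24, adjusted p = 0.0496). Tsc22d3, Per1 and Fkbp5, targets of the glucocorticoid receptor in many tissues, differed by -0.037, -0.047 and 0.44 on HAMS against LAMS, and none of them passed. They were picked from the 10 after their values were seen, so they do not stand for the list. Fkbp5 was the 1 gene of the 10 with a positive difference. The HAMSB diet against HAMS had 8 of 10 with positive differences, a median of 0.27 and 6 at an unadjusted p under 0.05. Of all 10934 genes 6634 were positive there, with a median of 0.066, and 3807 had an unadjusted p under 0.05. After adjustment 1 of the 10 rose, Usp2, a ubiquitin protease that aldosterone induces in the mouse kidney, with 6.66 ± 0.29 on HAMSB and 5.75 ± 0.36 on HAMS (SD, n = 9 and 8; difference 0.91 ± 0.19, adjusted p = 0.0021). On HAW against HAMS 1 of 10 rose, Errfi1 (0.48 ± 0.14).

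Potassium and chloride transport were followed through 12 and 9 genes. Kcne3, which encodes the subunit that pairs with Kcnq1 in colonocytes, fell on HAMS against LAMS by 0.87 on the log2 scale (± 0.20, adjusted p = 0.0082), with 6.59 ± 0.41 on HAMS and 7.46 ± 0.44 on LAMS. It rose on HAMSB against HAMS by 0.90 ± 0.18 (adjusted p = 0.0021) and on HAW against HAMS by 0.62 ± 0.19 (adjusted p = 0.028). The channel and its partner subunit moved the same way in these 3 comparisons, which share the HAMS arrays and so are not independent. In all, 3 of 12 potassium transport genes fell on HAMS against LAMS, with Kcnk6 (-0.59 ± 0.17) and the cotransporter Slc12a7 (-0.29 ± 0.09) beside Kcne3. In HAMSB against HAMS 4 of 12 rose, led by Slc12a7, Kcne3 and Kcnk6. On HAW against HAMS 2 rose, Slc12a7 and Kcne3, and Kcne2 fell by 0.37 on the log2 scale. Of 9 chloride and water transport genes 3 fell on HAMS against LAMS: Slc12a2, the basolateral cotransporter of chloride secretion (-0.71 ± 0.18), the chloride channel Cftr (-0.73 ± 0.23) and Clcn2 (-0.70 ± 0.21). In HAMSB against HAMS 2 of 9 rose, Clcn2 (0.81 ± 0.20) and the water channel Aqp8 (0.97 ± 0.34). Aqp8 is also on the list of surface colonocyte markers. On HAW against HAMS 4 of 9 rose, among them Slc12a2 (0.61 ± 0.17), Ano1 (0.45 ± 0.14) and Cftr (0.70 ± 0.22).

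Electroneutral sodium absorption, the alternative to ENaC, runs through the exchanger Nhe3, encoded by Slc9a3. Slc9a3 rose on HAMSB against HAMS, with 7.94 ± 0.80 on HAMSB and 6.63 ± 0.59 on HAMS (SD, n = 9 and 8; difference 1.31 ± 0.39, adjusted p = 0.019). In the same comparison Nherf1, the scaffold that binds this exchanger, rose by 0.46 ± 0.11 and the pump regulator Fxyd1 by 0.65 ± 0.14, with 4 of 12 genes rising in all, while Atp1b3, another beta subunit of the sodium pump, fell by 0.44 on the log2 scale. On HAMS against LAMS 2 of 12 sodium transport genes fell, Slc9a8 (-0.39 ± 0.12) and Fxyd1 (-0.46 ± 0.15), and on HAW against HAMS 2 rose, the chloride-bicarbonate exchanger Slc26a3 (0.55 ± 0.19), which works beside sodium-proton exchange, and the exchanger Slc9a2 (0.59 ± 0.20). Slc26a3 is also on the list of surface colonocyte markers. Fxyd1 was also the 1 gene of the 69 that passed for the mean of the 5 Western diets against CON (-0.63 ± 0.14, adjusted p = 0.028). That call was lost with arrays centred, at -0.54 (adjusted p = 0.21), and with the array spread as a covariate, at -0.63 (adjusted p = 0.066).

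**Figure D5:**
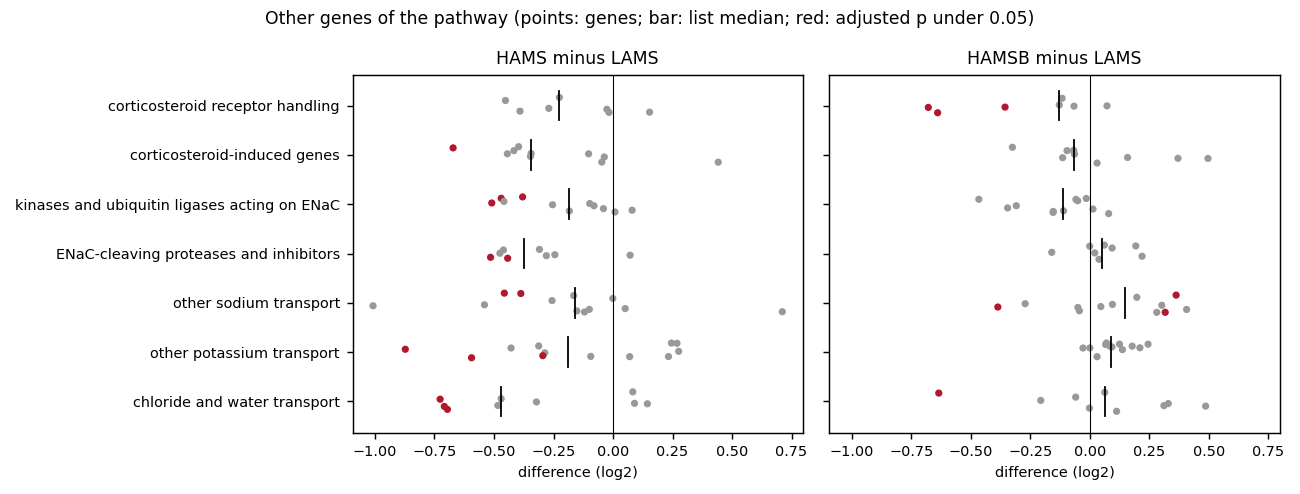
Log2 differences of the 69 other genes by list on HAMS against LAMS (left) and HAMSB against LAMS (right); points are genes, bars list medians, red an adjusted p under 0.05. On the left 14 genes are red and all lie below 0, and on the right 3 of the 7 genes of receptor handling are red, each below 0.

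Of the 69 other genes 5 fell and 2 rose on HAMSB against LAMS, and over all genes 4.59% fell and 2.19% rose. Of 7 genes of corticosteroid receptor handling 3 fell and 0 rose, of 12 sodium transport genes 1 fell and 2 rose, and of 9 chloride and water transport genes 1 fell. Nr3c1, the glucocorticoid receptor, had 8.19 ± 0.20 on HAMSB and 8.87 ± 0.46 on LAMS (SD, n = 9 and 7; difference -0.68 ± 0.15, adjusted p = 0.010). The chaperone genes Hsp90aa1 and Hsp90ab1, whose products hold corticosteroid receptors ready for their ligand, were lower by -0.64 ± 0.18 (adjusted p = 0.032) and -0.36 ± 0.09 (adjusted p = 0.013). All 3 passed with the lymphoid or the epithelial level as a covariate, at -0.66 in both fits for Nr3c1. With the style of the file name as a block Nr3c1 was -0.39 (adjusted p = 0.019), while Hsp90aa1 at -0.44 (adjusted p = 0.20) and Hsp90ab1 at -0.28 (adjusted p = 0.053) missed the threshold. Among arrays of that style alone, 5 HAMSB and 3 LAMS, Nr3c1 was -0.36 (adjusted p = 0.19). On HAMSB against LAMS it was -0.46 (adjusted p = 0.12) in the arrays with a lymphoid level under 7 and -0.81 (adjusted p = 0.28) in those over 7. On HAMSB against HAMS the difference of Nr3c1 was -0.29 with an adjusted p of 0.15, while Hsp90ab1 fell in that comparison as well (-0.33 ± 0.08, adjusted p = 0.0066). Besides these, Slc12a2 (-0.63 ± 0.17) and Atp1b3 (-0.39 ± 0.12) fell on HAMSB against LAMS, and Nherf1 (0.36 ± 0.11) and Fxyd2 (0.32 ± 0.10) rose. With the style of the file name as a block 3 of these 4 calls were lost, at an adjusted p of 0.15 for Slc12a2, 0.080 for Atp1b3 and 0.18 for Fxyd2, while Nherf1 passed at 0.045. With no filter on low levels Nherf1 (adjusted p = 0.057) and Fxyd2 (adjusted p = 0.059) missed the threshold.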

How the data were processed

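RNA from distal colon of 43 rats was measured on Affymetrix arrays from 100 ng of total RNA each, per the labels' protocols. The authors deposited log2 values for 29214 probe sets, for which the submitters' processing notes name RMA; its version and probe definition are not given in the sources used here. Signals were not recomputed, and the number of arrays sets the precision. Symbols came from the platform annotation: 15310 probe sets had 1, 323 several and 13581 none. A gene was read from its probe set of highest mean and tested where its median reached 4.75, the 25th percentile, which left 10934 genes. The 6 diet means were fitted with limma 3.58.1 (R 4.3.3), with Benjamini-Hochberg adjustment over all genes tested, two-sided, at 0.05. Each array is a separate rat, and whether rats shared a cage or batch is not given. The 9 genes, the lists and the tests were chosen with earlier results of these data known. Of each list up to 3 genes per direction, by smallest p, were named; Tsc22d3, Per1, Fkbp5 and Nr3c1 on HAMSB against HAMS were named after their values were seen. The 2 genes most like each gene were named by Pearson r. The test was checked on simulated data. Alternatives covered filter, probe sets, prior, array weights, centring, blocks, covariates and left-out arrays.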

Additional observations from a re-analysis of the deposited data

Results flagged for a closer look

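In 5 of the 54 gene and diet groups a single rat stood apart from the rest of its diet by Dixon's criterion, which chance alone flags in about 1 of 20 groups. Scnn1g was 8.91 in LAMS replicate 4, against 6.60 for the next highest LAMS rat, and 8.68 in HAW replicate 1, against 6.64 for the next highest HAW rat. The lymphoid levels of these arrays were 8.58 and 5.50 and their epithelial levels 10.38 and 10.84, so they lay on either side of the lymphoid split. Hsd11b2 was 8.54 in HAMS replicate 2, against 9.22 for the next lowest HAMS rat, and Scnn1a was 7.51 in the same rat, against 8.54. This rat had the highest lymphoid level, 9.13, and the lowest epithelial level, 9.89, of the 43 arrays. Scnn1a was 8.64 in HAMSB replicate 9, against 9.20 for the next lowest HAMSB rat, on an array with a lymphoid level of 8.23 and an epithelial level of 10.57. The part of tissue content in these values was not tested for single rats.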

How the results depend on the processing

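Of the 9 genes, 4 passed on HAMS against LAMS. The count was 0 with the compared diets alone, centred arrays, the replicate number as a block, the lymphoid level, the epithelial level, the array spread, the file name style with the lymphoid level, or lymphoid levels under 7. In the order given, 492, 950, 602, 673, 88, 6, 98 and 0 of all genes passed. The count was 1 with the name style as a block, within 1 style, at lymphoid levels over 7, and without the 2 arrays of lowest spread. Of all genes 945, 1199, 785 and 1034 passed there, in that order. Other settings added genes by limma. Scnn1a passed as well with array weights (adjusted p = 0.017), the stricter filter (0.042) and the trended and robust prior (0.049). Atp1b1 passed with array weights (adjusted p = 0.044), where 4059 of all genes passed. The cause was not tested. On HAMSB against HAMS 4 became 2 with the lymphoid level, 1 with name style and lymphoid level, and 0 with the epithelial level or in either lymphoid set. In the order given, 375, 561, 9, 111 (under 7) and 5 (over 7) of all genes passed. On HAW against HAMS 4 became 2 with centring and 0 with the compared diets alone, name style, lymphoid level, epithelial level, spread, name style and lymphoid level, 1 style, or either lymphoid set. In the order given, 990, 27, 808, 394, 80, 23, 42, 7, 2 (under 7) and 3 (over 7) of all genes passed. The F test count of 5 became 1 with name style, lymphoid level or spread, and 0 with centring, epithelial level, or name style and lymphoid level. In the order given, 1398, 3095, 1533, 2702, 2577 and 549 of all genes passed. The amylose interaction, 0, became 5 with array weights, where 1119 of all genes passed. Leaving out 1 array at a time gave 0 to 6 on HAMS against LAMS, 2 to 5 on HAMSB against HAMS, 0 to 5 on HAW against HAMS, 0 to 6 in the F test, and 0 to 0 elsewhere. Arrays of different diets with the same replicate number had a mean r of -0.059 over 94 pairs, 37 of them over 0.1. Those with different numbers had a mean r of 0.013 over 671 pairs, 289 of them over 0.1. No pairing by number was seen, but shared cages or batches cannot be told from these values. With the replicate block 5 passed on HAMSB against HAMS, 4 on HAW against HAMS and 4 in the F test. Some signs turned, all without passing: at lymphoid levels under 7, Nr3c2 0.031, Sgk1 0.022, Spint1 0.022 and Tmprss2 0.0055 on HAMS against LAMS, Tmprss4 -0.030 and Kcnk1 -0.051 on HAMSB against HAMS, and Slc26a3 -0.27 on HAW against HAMS; with name style and lymphoid level, Nedd4l -0.041, Oxsr1 -0.046, Slc9a2 -0.038 and Spint1 -0.047 on HAW against HAMS; within 1 style, Oxsr1 -0.041. Arrays of few rats in some strata, 2 HAMS under 7 and 2 HAMSB or HAW over 7, limit these comparisons. Over all genes, 1545 passed on HAMS against LAMS, and between 0 (lymphoid level under 7) and 4059 (array weights) across settings; the counts were 1821, and 5 (lymphoid level over 7) to 3791 (array weights), on HAMSB against HAMS, and 1458, and 2 (lymphoid level under 7) to 4742 (array weights), on HAW against HAMS. Across the same settings 549 (name style and lymphoid level) to 7524 (array weights) genes passed in the F test, against 3355, 1 to 3724 on HAMSB against LAMS, against 741, 0 to 742 for the mean of the 5 Western diets, against 157, 2 to 1119 in the interaction, against 3, and 0 to 234 on LAMS against CON, against 0.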
